A study of Mus musculus with 30 samples.

Results

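Myocardin (Myocd), its DNA-binding partner serum response factor (Srf) and the proteins that work with Srf were followed across developing mouse airways in which Myocd was conditionally deleted. The members were fixed by name and not by a cut on a measured value, though with earlier results of these data known. They were Myocd, Srf, the myocardin-related factors Mkl1 and Mkl2, the ternary complex factors Elk1, Elk3 and Elk4, and the LIM proteins Fhl2 and Tgfb1i1. These are 9 of the 53715 genes counted, and all 9 passed the filter on low counts in every comparison. Messenger RNA was sequenced from single lungs and tracheas in 30 libraries.

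The mutants carried Tbx4rtTAi/+, tetOcrei/+ and MyocdF/F, so that both Myocd alleles were floxed, and gave 5 lungs at embryonic day E13.5, 6 lungs at E18.5 and 6 tracheas at E18.5. The controls carried Tbx4rtTAi/+, tetOcrei/+ and MyocdF/+, and gave 5, 4 and 4 libraries of the same kinds. Mutants and controls thus shared the transactivator, the Cre transgene and 1 floxed allele, with the exception of E13.5 control 1, labelled MyocdF/F without transgenes. Cre in this system depends on the transactivator labelled Tbx4, a gene of lung and tracheal mesenchyme, and on a tetracycline-class inducer, and the sources used here do not give its dosing. E13.5 libraries were made from right and left lobes and E18.5 lung libraries from right lobes, so stage and lobes cannot be told apart. Nothing in the labels says whether libraries of a group shared a litter or a day.

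SRF is a MADS-box transcription factor that binds a short A- and T-rich element, the CArG box, in front of contractile, cytoskeletal and growth-response genes. What it activates depends on its partner. Myocardin is restricted to cardiac and smooth muscle and drives the contractile programme. The factors encoded by Mkl1 and Mkl2 are widely expressed, are held back by unpolymerised actin and carry cytoskeletal signals to SRF. Ternary complex factors are ETS proteins that respond to MAP kinase signalling and bind a surface of SRF that the myocardin family also uses. In the airways, the myocardin and SRF partnership is best known from the bands of smooth muscle that wrap the epithelium.

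The CArG box was looked for in the 250 bases before each annotated start of the members, because Srf and Fhl2 are themselves known SRF targets. RefSeq promoter sequences of GRCm38.p6 matched 7 of the 9 members with 13 starts, and Myocd and Tgfb1i1 were not among them. The CArG box reads as the same motif on both strands. Srf had 2 boxes before its single start, at chr17:46556235-46556244 and chr17:46556215-46556224. Fhl2 had 1 box before each of its 2 starts, at chr1:43196848-43196857 and chr1:43163983-43163992. Of 32851 promoter windows of the same length in the table, 1.47% held at least 1 such box and 0.0183% held 2 or more. The stretches below are shown because they hold these boxes, in capitals, and are written 5′ to 3′ on the gene's minus strand. The Srf stretch covers bases 130 to 31 before the start (chr17:46556193-46556292).
Srf: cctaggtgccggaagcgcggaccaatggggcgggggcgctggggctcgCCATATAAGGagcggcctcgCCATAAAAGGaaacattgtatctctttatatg
Fhl2, first start: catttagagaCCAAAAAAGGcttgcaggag
Fhl2, second start: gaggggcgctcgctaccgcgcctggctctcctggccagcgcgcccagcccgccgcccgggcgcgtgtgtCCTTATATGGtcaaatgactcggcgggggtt
The first Fhl2 stretch is chr1:43196838-43196867, and its box lies inside a first exon of another Fhl2 transcript in GENCODE vM21. The second is chr1:43163962-43164061 and directly precedes its start. The Srf window also held 1 copy of CCGGAA, the core that ETS factors such as the Elk proteins bind. So did the windows of Mkl2 starts 1 and 2 and Elk4 start 1, and 12% of all windows held it on either strand. A match is a description of the letters and not evidence of binding. In the same windows, 3 of 20 matched contractile SRF targets had a box (Filip1l, Myl6 and Myl9), as did 4 of 22 cytoskeletal targets (Actg1, Cnn2, Fhl1 and Vcl). A box was also held by 2 of 11 matched immediate early targets (Egr2 and Zfp36) and 2 of 22 other partners of SRF (Fhl1 and Hopx). The matched genes were 20 of 24, 22 of 24, 11 of 16 and 22 of 33 listed, in this order. Genes of 1 chromosome were left out of these list counts by rule, and no unmatched gene was searched. The counts thus do not cover the whole lists. They are per gene, which can have several starts, whereas the background above is per window and was not cut by that rule.

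Libraries held 11738468 to 32843686 counts. Libraries of 1 group spread least at E13.5 (biological coefficient of variation 0.140), more in E18.5 lung (0.184) and most in trachea (0.370). Trachea control 2 (11738468 counts) and trachea mutant 4 (12384284 counts, with 14.5% of them in the single gene CT010467.1) stood apart from the rest. Levels also leaned towards long or short transcripts in some libraries: the slope of a library's log2 levels on log2 exon length, relative to its tissue and stage, was lowest in E13.5 mutant 1 (-0.17) and trachea mutant 4 (-0.13). Levels are in CPM, counts divided by library sizes that were scaled by the TMM method. The tissue labels matched their markers: 8 cartilage genes summed to 3417 to 16191 CPM in tracheas and to at most 44.4 CPM in E18.5 lungs, and 8 lung epithelial genes to 2267 to 4960 CPM in tracheas and 13478 to 17453 CPM in E18.5 lungs. Skeletal muscle varied between tracheas, where 11 markers summed to 25.0 to 3436 CPM in mutants and 47.7 to 2826 CPM in controls. All 8 airway smooth muscle markers had reads in every library.

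Per length, Srf and Elk3 were the most abundant members in E13.5 lung and Myocd was the least. In units of CPM per kilobase of exon (RPKM), Srf averaged 27.5 ± 2.46 (SD, n = 5) in E13.5 mutants and 29.6 ± 1.04 (SD, n = 5) in controls. Elk3 averaged 25.1 ± 0.74 RPKM in E13.5 mutants and 27.2 ± 0.73 RPKM in controls. Myocd averaged 1.64 ± 0.50 RPKM in E13.5 mutants and 2.03 ± 0.62 RPKM in controls. Within the myocardin family, Myocd was the minor transcript: its share of the summed RPKM of Myocd, Mkl1 and Mkl2 was 9.85% in E13.5 mutants and 11.2% in E13.5 controls. That share was 4.45% in E18.5 lung mutants and 5.49% in E18.5 lung controls, and 5.28% in trachea mutants and 4.95% in trachea controls. Of the ternary complex factors, Elk3 supplied 54.2% of the summed RPKM in trachea mutants, the lowest group mean, and 65.0% in E18.5 lung mutants, the highest. Bulk RNA carries these transcripts from all cells of the organ, and fewer cells of a type cannot be told apart from less RNA per cell.

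**Figure D1:**
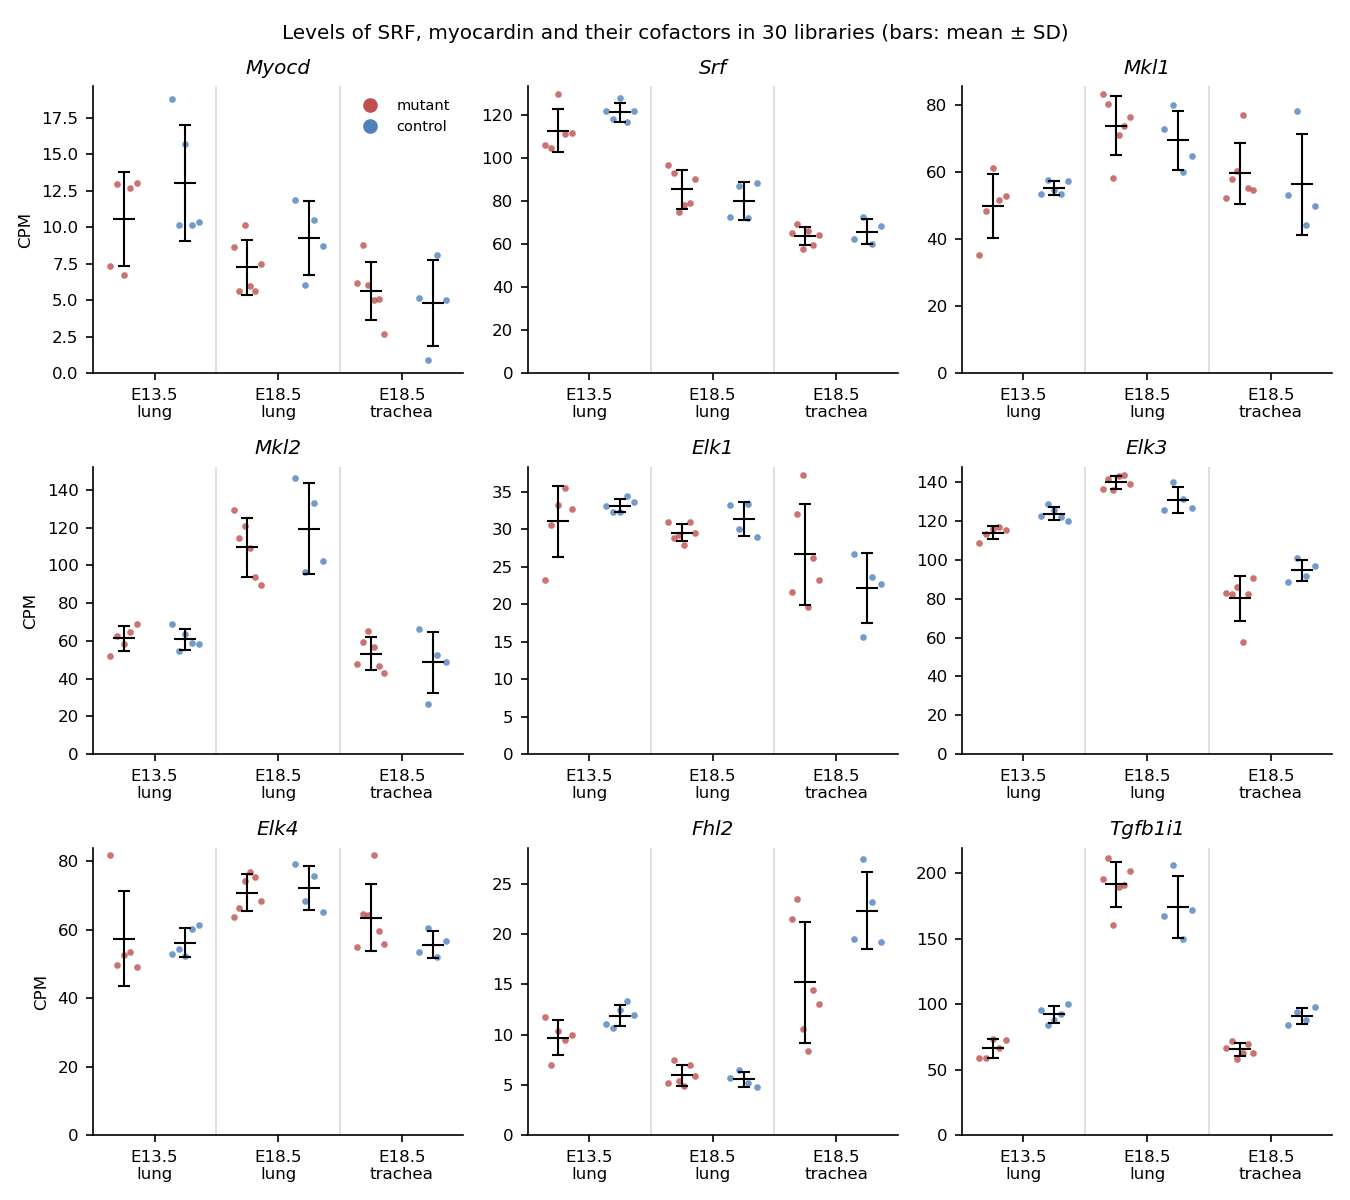
Level of each member (CPM, linear axis from 0) in the 30 libraries, mutants in red at the left and controls in blue at the right of each tissue and stage; points are libraries and bars the mean ± SD. Tgfb1i1 separates the genotypes in E13.5 lung (58.6 to 73.8 CPM in mutants, 84.2 to 100.3 CPM in controls) and in trachea, and Myocd overlaps in all 3 tissues.

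The first question was how the members themselves differed between mutants, with both Myocd alleles floxed, and controls, with 1 floxed allele except in E13.5 control 1. With edgeR's quasi-likelihood test and Benjamini-Hochberg adjustment over all genes, 1 of 9 members passed the threshold of 0.05 in E13.5 lung, where 0.206% of 16486 genes were called and 0.188% were called lower. None passed in E18.5 lung (0.584% of genes called, 0.55% lower) or in trachea (0.071% called, 0.0655% lower). The member that fell was Tgfb1i1. At an unadjusted p under 0.05, 3 members passed in E13.5 lung (Elk3, Fhl2 and Tgfb1i1), none in E18.5 lung and 1 in trachea (Tgfb1i1). The background at that limit was 6.75% of genes in trachea, 9.41% at E18.5 in lung and 3.57% at E13.5. DESeq2, run as an alternative, called Tgfb1i1 at E13.5 (0.348% of genes called) and in trachea (0.449%), and no member in E18.5 lung (1.61%).

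Myocd, the gene carrying the floxed allele (GRCm38 chr11:65176561-65269989, minus strand), had reads in every library. It had 7.36, 12.9, 6.74, 12.7 and 13.04 CPM in E13.5 mutants, against 18.8, 10.2, 15.7, 10.1 and 10.4 CPM in E13.5 controls. The 2 genotypes overlapped, and each split into a high and a low set of libraries. The log2 fold change was -0.29 ± 0.24 (SE; adjusted p = 0.998). In E18.5 lung Myocd ran from 5.59 to 10.1 CPM in mutants with a median of 6.71 CPM, and stood at 11.8, 6.02, 10.5 and 8.67 CPM in controls. Here the log2 fold change was -0.35 ± 0.21 (SE; adjusted p = 0.651), again with overlapping libraries. Tracheas ran from 2.69 to 8.80 CPM in mutants, median 5.54 CPM, and had 5.12, 0.888, 8.05 and 5.01 CPM in controls. The lowest of these, control 2, rested on 11 reads, and without it the log2 fold change turned from 0.26 ± 0.46 (SE; adjusted p = 0.911) to -0.08. Which exons were floxed is not in the labels, and whole-gene counts are therefore no check of the genotype.

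At E13.5, the lung libraries with high Myocd were those with a high length slope, in both genotypes. Here mutants 2, 4 and 5 had slopes of 0.06, 0.06 and 0.05 and the highest mutant levels, while mutants 1 and 3 had slopes of -0.17 and -0.03 and the lowest. Likewise controls 1 and 3, with slopes of 0.04 and 0.05, held 18.8 and 15.7 CPM, and controls 2, 4 and 5, with slopes of -0.04, -0.001 and -0.02, held 10.1 to 10.4 CPM. Control 1 is the control labelled without transgenes, so its genotype and its slope cannot be told apart. In E18.5 lung, mutant 3 (slope 0.06) held the highest mutant level, 10.1 CPM, and controls 1 and 3 (slopes 0.06 and 0.04) the highest control levels. E18.5 lung mutant 6 did not follow this order: it had the lowest slope (-0.06) and 7.50 CPM, above mutants 2, 4 and 5 at 5.59 to 5.93 CPM with slopes of -0.03 to -0.02. Trachea controls kept the order, from control 3 (slope 0.07, 8.05 CPM) down to control 2 (slope -0.01, 0.888 CPM). Trachea mutants did not: mutant 2, with a slope of -0.06, had the highest mutant level, 8.80 CPM. Trachea mutant 6, with a slope of 0.005, had the lowest, 2.69 CPM. With the slope added to the model, a step taken after the data were seen, the Myocd log2 fold change was -0.27 ± 0.16 in E13.5 lung and -0.12 ± 0.19 in E18.5 lung (SE), and neither passed. Without E13.5 mutant 1 and control 1 together it was -0.02 ± 0.23 (SE). The part of transcript coverage in these levels was not tested.

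**Figure D2:**
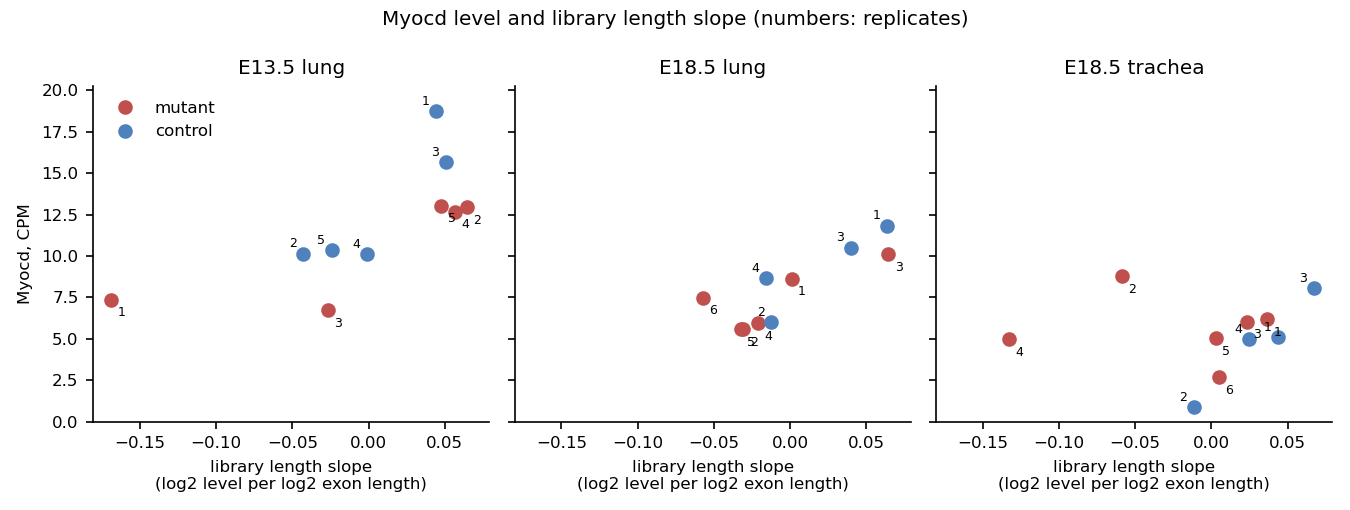
Myocd level (CPM) against the length slope of each library (log2 level per log2 exon length, relative to the tissue and stage), mutants in red and controls in blue, with replicate numbers beside the points. In E13.5 lung the libraries with slopes of 0.04 or more lie at 12.7 to 18.8 CPM and the others at 6.74 to 10.4 CPM, in both genotypes.

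Tgfb1i1 encodes a LIM adaptor of focal adhesions, inducible by TGF-β and abundant in smooth muscle, that also acts as a nuclear coactivator; the gene lies at GRCm38 chr7:128246812-128255699 on the plus strand. In E13.5 lung it had 59.0, 58.6, 73.8, 66.4 and 73.0 CPM in mutants, against 95.7, 84.2, 87.8, 92.8 and 100.3 CPM in controls. Every mutant lay below every control. The fall was 0.47 on the log2 scale or 1.39-fold (log2 fold change -0.47 ± 0.08 SE; edgeR adjusted p = 0.0298). Of 16486 genes, 0.704% had mutants wholly below controls, and Elk3 was the only other member among them. The call did not hold in 7 of 10 fits that left out 1 library (without control 1, 3, 4 or 5 or mutant 2, 3 or 4), in which the log2 fold change stayed between -0.51 and -0.44 and the adjusted p lay between 0.051 and 0.133. It was also lost without control 1 and mutant 1 together (-0.42; adjusted p = 0.0596).

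Tracheas showed a like difference in Tgfb1i1 that missed the threshold. Mutants had 66.3, 72.2, 58.2, 62.9, 69.9 and 62.7 CPM (lowest 58.2, highest 72.2), against 83.8, 94.2, 87.7 and 97.8 CPM in controls. The genotypes did not overlap, as was so for 1.47% of 18315 genes that lay lower in mutants. The log2 fold change was -0.45 ± 0.10 (SE; edgeR adjusted p = 0.196), and DESeq2 gave -0.44 with an adjusted p of 0.00741. E18.5 lung gave 161 to 212 CPM in mutants with a median of 193 CPM, and 167, 207, 149.98 and 172 CPM in controls. There the libraries overlapped and the log2 fold change was 0.15 ± 0.09 (SE; adjusted p = 0.647).

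The difference between these effects was tested directly. Tgfb1i1's mutant effect was 0.62 ± 0.13 (SE, log2) higher in E18.5 lung than in E13.5 lung, with an edgeR adjusted p of 0.0755, and 0 of 9 members passed where 0.0268% of 18639 genes did. DESeq2 called this difference (0.62; adjusted p = 0.00551), as it did 0.226% of genes. The edgeR call appeared without E13.5 mutant 5 (0.65; adjusted p = 0.0487) and without E18.5 lung control 2 (0.71; adjusted p = 0.0141). Between E18.5 trachea and E18.5 lung the effect differed by -0.55 ± 0.13 (SE; edgeR adjusted p = 0.164), and 0 of 9 members passed where 0.0252% of 19859 genes did. DESeq2 called this one too (-0.58; adjusted p = 0.0162), with 0.268% of genes. At an unadjusted p under 0.05, edgeR passed Elk3 and Tgfb1i1 in both difference tests. The share of all genes at that limit is not given for these tests, so this count cannot be set against a background.

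Airway smooth muscle markers moved in the same libraries. Their 8 genes (Acta2, Myh11, Cnn1, Lgr6, Mylk, Actg2, Des and Foxf1) summed to 617 to 948 CPM in E13.5 mutants and 1145 to 1385 CPM in E13.5 controls. In trachea the sums were 363 to 583 CPM in mutants and 986 to 1392 CPM in controls. E18.5 lung sums lay closer, at 1142 to 1224 CPM in mutants and 1221 to 1312 CPM in controls. The part of smooth muscle cell number in the Tgfb1i1 difference was not tested. The 9 vascular smooth muscle and pericyte markers overlapped between genotypes at E13.5, at 495 to 806 CPM in mutants and 599 to 778 CPM in controls. In trachea they summed to 539 to 746 CPM in mutants and 744 to 807 CPM in controls.

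**Figure D3:**
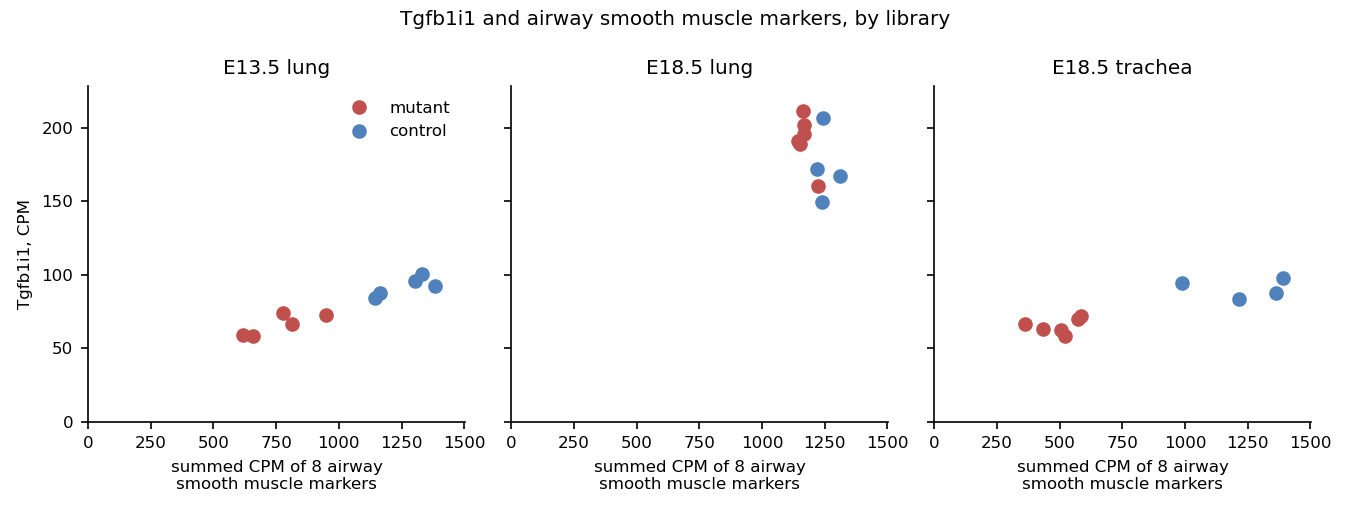
Tgfb1i1 (CPM) against the summed CPM of 8 airway smooth muscle markers in each library, mutants in red and controls in blue, both axes from 0. E13.5 mutants lie at sums of 617 to 948 CPM and trachea mutants at 363 to 583 CPM, left of their controls. E18.5 lung mutants, with Tgfb1i1 at 161 to 212 CPM, lie at sums of 1142 to 1224 CPM, mostly left of their controls at 1221 to 1312 CPM.

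Fhl2, a LIM-only partner of SRF that is itself induced by SRF and is known to compete with the myocardin-related factors, was low in lung. It had 11.8, 7.01, 10.3, 9.45 and 9.97 CPM in E13.5 mutants, against 11.1, 10.7, 12.4, 13.3 and 11.97 CPM in E13.5 controls. The genotypes overlapped, and the log2 fold change was -0.29 ± 0.12 (SE; adjusted p = 0.998). In E18.5 lung Fhl2 ran from 4.87 to 7.48 CPM in mutants with a median of 5.61 CPM, and had 5.70, 6.50, 5.15 and 4.77 CPM in controls (log2 fold change 0.11 ± 0.18 SE; adjusted p = 0.893).

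Tracheas held more Fhl2 and varied more: mutants 1 to 6 had 21.5, 23.5, 10.6, 8.32, 14.4 and 13.1 CPM, against 19.5, 27.5, 23.2 and 19.3 CPM in controls. Mutants 1 and 2 reached the control range and the other 4 lay below it. The log2 fold change was -0.53 ± 0.26 (SE; adjusted p = 0.733). Fhl2 is abundant in heart, and the summed level of 11 cardiac muscle markers was 845, 618, 93.9, 270, 190.1 and 275 CPM in these mutants, against 210.3, 1878, 238 and 182 CPM in controls. The libraries with the highest Fhl2 of each genotype, mutants 1 and 2 and control 2, also had the highest cardiac sums. The levels were not in proportion: control 2 held 1878 CPM of cardiac markers and 27.5 CPM of Fhl2. The control with the next highest cardiac sum, 238 CPM, held 23.2 CPM of Fhl2. With the cardiac sum in the model, again a later choice, the log2 fold change was -0.50 ± 0.20 (SE; adjusted p = 0.667). It was -0.28 ± 0.23 (SE) without mutant 4 and control 2, the shallowest tracheas. The part of heart tissue in the spread of Fhl2 between tracheas was not tested.

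Srf itself (GRCm38 chr17:46546839-46556162, minus strand) did not pass in any mutant comparison. It had 106, 105, 129.6, 111 and 111 CPM in E13.5 mutants, against 121, 118, 127, 116 and 122 CPM in controls. Mutant 3 was the highest of all 10 libraries and the other 4 mutants lay below every control. The log2 fold change was -0.10 ± 0.06 (SE; 95% interval -0.23 to 0.02). In E18.5 lung, mutants had 74.8 to 96.5 CPM with a median of 84.7 CPM, and controls had 72.5, 86.6, 71.7 and 88.2 CPM, for a log2 fold change of 0.10 ± 0.09 (SE; interval -0.07 to 0.27). In trachea, mutants had 57.4 to 69.0 CPM with a median of 64.6 CPM, and controls had 62.2, 72.3, 59.9 and 68.2 CPM. This gave -0.02 ± 0.10 (SE; interval -0.23 to 0.18). The intervals thus reach no change larger than 0.27 in either direction on the log2 scale.

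The myocardin-related factors overlapped between genotypes in every tissue. Mkl1 had 35.1, 48.3, 61.2, 51.6 and 52.8 CPM in E13.5 mutants, against 53.3, 57.6, 54.6, 53.2 and 57.3 CPM in controls. Mutant 1, the library with the lowest length slope, was the lowest. The log2 fold changes of Mkl1 were -0.14 ± 0.11 at E13.5, 0.09 ± 0.10 in E18.5 lung and 0.10 ± 0.17 in trachea (SE). Mkl2 had 51.8, 62.8, 58.4, 64.6 and 68.8 CPM in E13.5 mutants, against 69.2, 54.6, 63.7, 58.6 and 58.3 CPM in controls. Its log2 fold changes were 0.01 ± 0.09, -0.12 ± 0.13 and 0.15 ± 0.20 (SE) in the same tissues. All adjusted p-values of these factors were 0.82 or more.

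**Figure D4:**
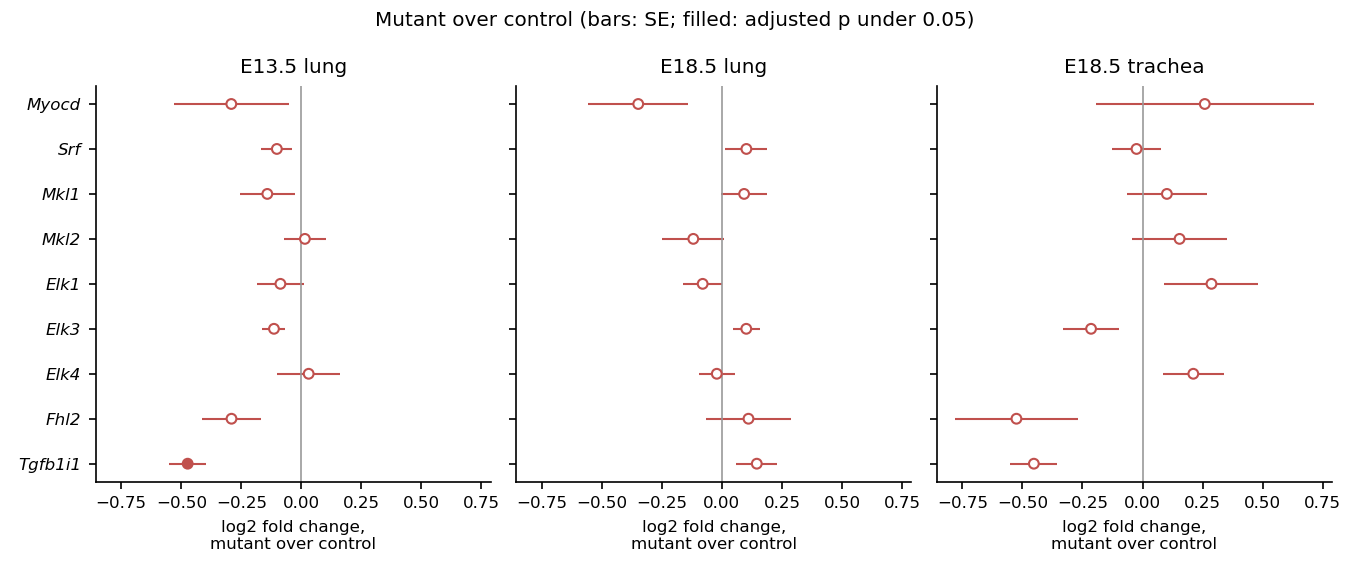
Log2 fold change of each member, mutant over control, in E13.5 lung, E18.5 lung and E18.5 trachea; points are estimates, bars their SE, and filled points passed an adjusted p of 0.05. Only Tgfb1i1 in E13.5 lung (-0.47) is filled.

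Among the ternary complex factors, Elk3, a factor known for repressing its targets until phosphorylated, varied little between E13.5 libraries (GRCm38 chr10:93247414-93311135, minus strand). E13.5 mutants had 109, 113, 116, 117 and 116 CPM, against 123, 129, 126, 122 and 120.0 CPM in controls. No mutant reached a control, yet the log2 fold change was -0.11 ± 0.05 (SE; unadjusted p = 0.0342, adjusted p = 0.998). In E18.5 lung, mutants had 136 to 144 CPM and controls 125 to 140.2 CPM (0.10 ± 0.06 SE). Tracheas gave 57.4 to 90.5 CPM in mutants and 88.6 to 101 CPM in controls (-0.21 ± 0.12 SE; -0.09 without the shallow mutant 4 and control 2). Of the exon bases of Elk3, 6.95% overlap Cdk17 on the other strand, and the counting ignored strand.

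Elk1 had 23.3, 30.6, 33.3, 35.5 and 32.8 CPM in E13.5 mutants, against 33.2, 32.3, 32.3, 34.5 and 33.6 CPM in controls. Elk4 had 81.9, 49.6, 52.4, 53.5 and 49.0 CPM in E13.5 mutants, against 53.0, 54.2, 52.3, 60.1 and 61.3 CPM in controls. The extreme value of each gene came from mutant 1. Without mutant 1 and control 1 the log2 fold change of Elk1 was 0.001 and that of Elk4 was -0.15, and with all libraries they were -0.09 ± 0.10 and 0.03 ± 0.13 (SE). In E18.5 lung their log2 fold changes were -0.08 ± 0.08 for Elk1 and -0.02 ± 0.07 for Elk4, and in trachea 0.29 ± 0.20 and 0.21 ± 0.13 (SE). None passed.

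The genes that SRF and its partners are known to drive were counted in 4 lists. The lists were chosen with earlier results of these data known, so their counts are a description and not an independent test. Of 24 contractile SRF targets, 6 fell and none rose in E13.5 mutants, with a median log2 fold change of -0.36 against 0.01 over all genes, and all 24 estimates were below 0. Synpo2, an actin-bundling protein of smooth muscle, had 14.5 ± 3.30 CPM in mutants and 40.4 ± 1.98 CPM in controls (SD, n = 5 each; log2 fold change -1.47 ± 0.13 SE). Acta2, smooth muscle actin, had 144 ± 33.1 CPM in mutants and 332 ± 32.5 CPM in controls (-1.20 ± 0.15 SE). Lmod1, an actin nucleator, averaged 2.60 CPM in mutants and 7.49 CPM in controls (-1.52 ± 0.20 SE). Cnn1, calponin, averaged 7.20 CPM in mutants and 29.3 CPM in controls (-2.01 ± 0.27 SE). The edgeR adjusted p of these 4 lay between 0.00111 and 0.00938, and Jph2 and Myh11 were the other 2. With control 1 and mutant 1 left out, 3 of 24 were called. Acta2 and Cnn1 were among those lost there (adjusted p = 0.0614 and 0.227). Cnn1 also lost its call without mutant 1 (-1.99; adjusted p = 0.0682), without the filter on low counts (adjusted p = 0.116) and with the length slope in the model (adjusted p = 0.056). The list shares 6 genes with the airway smooth muscle markers, whose sums are given above.

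In E18.5 lung 3 of 24 contractile targets fell, with a list median of -0.12 against 0.005 over all genes. Itga7, an integrin of muscle, averaged 56.2 CPM in mutants and 77.7 CPM in controls (log2 fold change -0.46 ± 0.09 SE; adjusted p = 0.0268). Synpo2 averaged 13.2 CPM in mutants and 19.8 CPM in controls (-0.58 ± 0.12 SE; adjusted p = 0.0268). Myh11, smooth muscle myosin, averaged 81.04 CPM in mutants and 105 CPM in controls (-0.37 ± 0.08 SE; adjusted p = 0.0426). The count depended on single libraries: it was 0 without control 1, 3 or 4 or mutant 4 or 6, and 1 without control 2 or mutant 2. With the length slope in the model it was 1, and DESeq2 called 5 (Actg2 and Cnn1 in addition).

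In trachea 3 of 24 fell, with a list median of -0.67 against 0.02, and 15 of 24 had an unadjusted p under 0.05. Of all genes, 6.75% reached that limit in trachea. Other tissue markers moved in the same tracheas. Of 8 cartilage markers all 8 estimates were below 0 (median -0.87) and 5 had an unadjusted p under 0.05, with sums of 3417 to 13114 CPM in mutants and 10525 to 16191 CPM in controls. Of 4 erythroid markers tested none was below 0 (median 1.37) and 3 had an unadjusted p under 0.05, with sums of 498 to 3413 CPM in mutants and 362 to 700.4 CPM in controls. No marker of either list passed the adjusted threshold, and the part of tissue make-up in the contractile and Tgfb1i1 values was not tested. Myh11 averaged 65.8 CPM in mutants and 272 CPM in controls (-2.02 ± 0.17 SE; adjusted p = 7.23e-05). Mylk, the kinase that starts smooth muscle contraction, averaged 107 CPM in mutants and 219 CPM in controls (-1.0 ± 0.13 SE; adjusted p = 0.00657). Synpo2 averaged 14.5 CPM in mutants and 44.6 CPM in controls (-1.59 ± 0.26 SE; adjusted p = 0.038). Synpo2 kept its call in 2 of 10 fits that left out 1 trachea (without mutant 1 or 6), and lost it without any control and without mutant 2, 3, 4 or 5 (-1.69 to -1.54; adjusted p 0.0935 to 0.195). It was also lost without the filter on low counts (adjusted p = 0.0583), with the length slope in the model (0.185) and without both shallow tracheas (0.208). Without control 4 the count was 1, and DESeq2 called 11 of 24 and edgeR without the filter 6.

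No gene of the other 3 lists passed edgeR's test with all libraries and the filter on low counts. Of cytoskeletal SRF targets, 23, 24 and 24 were tested in E13.5 lung, E18.5 lung and trachea, with medians of -0.06, 0.01 and -0.05. An unadjusted p under 0.05 was reached by 3 genes in E13.5 lung (Zyx, Dstn and Cyr61), by 4 in E18.5 lung (Actb, Tpm3, Cfl1 and Pfn1) and by 5 in trachea (Flna, Myh9, Actn1, Cyr61 and Ctgf). The share of all genes at that limit was 3.57%, 9.41% and 6.75% in the same tissues, which holds for the next lists too. The genes given in parentheses here and in the next lists were picked after their values were seen. Actb averaged 2836, 2300 and 1303 CPM in mutants of these tissues, and 3047, 2016 and 1059 CPM in controls. Flna, an actin cross-linker, averaged 1272, 1219 and 569 CPM in mutants, and 1333, 1335 and 710.4 CPM in controls. Of immediate early targets of the ternary complex factors, 14, 14 and 15 were tested, with medians of -0.08, -0.18 and -0.16. An unadjusted p under 0.05 was reached by 2 genes in E13.5 lung (Btg2 and Zfp36), by 1 in E18.5 lung (Ier3) and by 2 in trachea (Fos and Egr1). In trachea Egr1, a zinc finger factor of the early growth response, was called by DESeq2 and by edgeR without the filter on low counts. Mcl1 averaged 291, 341 and 199 CPM in mutants, and 276, 342 and 204 CPM in controls. Btg2 averaged 54.0, 261 and 103 CPM in mutants, and 62.0, 289 and 117 CPM in controls. For either gene the adjusted p was 0.72 or more.

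Other partners and regulators of SRF, such as GATA factors, regulators of actin and chromatin enzymes, gave 31, 32 and 32 tested genes with medians of -0.04, -0.01 and -0.07. Of these, 1 had an unadjusted p under 0.05 in E13.5 lung (Csrp3), 2 in E18.5 lung (Hopx and Rock1) and none in trachea. Rock1, a kinase of actomyosin contraction, was called in E18.5 lung without mutant 3, the 1 call in this list over fits that left out a library. Notch3, a receptor of mural cells, averaged 215 ± 75.0 CPM in E13.5 mutants and 236 ± 8.58 CPM in E13.5 controls (SD, n = 5 each). Rhoa, the GTPase upstream of actin polymerisation, averaged 218 CPM in E13.5 mutants and 229.5 CPM in E13.5 controls, and 179 CPM in trachea mutants and 181 CPM in trachea controls. Fhl1 averaged 1186 CPM in E18.5 lung mutants and 1210.2 CPM in controls, and 356 CPM in trachea mutants and 327 CPM in controls. Hopx, a homeodomain inhibitor of SRF, averaged 271 CPM in E18.5 lung mutants and 241 CPM in controls (log2 fold change 0.18 ± 0.07 SE; adjusted p = 0.445).

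Stage moved most members, as it moved most genes. Of 18639 genes, 75.7% differed between E18.5 and E13.5 mutant lung (37.2% higher and 38.4% lower), and 74.7% between E18.5 and E13.5 control lung (37.4% higher and 37.3% lower). Among the members 8 of 9 passed in mutants (5 higher, 3 lower) and 6 of 9 in controls (4 higher, 2 lower), and a change with stage was thus common to most members and most genes. Values below are log2 fold changes, E18.5 over E13.5, with SE and edgeR adjusted p.

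The myocardin-related factors rose with stage and Srf fell. Myocd fell by 0.54 in mutants (SE 0.22; adjusted p = 0.0336), a call lost without E13.5 mutant 2, 4 or 5 or E18.5 mutant 2, 4 or 5 (-0.48 to -0.45) and without the filter on low counts (-0.56; adjusted p = 0.0502). In controls its change was -0.48 (SE 0.25; adjusted p = 0.0825). Srf fell by 0.39 in mutants and by 0.59 in controls (SE 0.08 and 0.09), to 85.3 against 112 CPM in mutants and to 79.7 against 121 CPM in controls. Mkl2 rose by 0.85 in mutants (SE 0.11), to 109.5 CPM at E18.5 against 61.3 CPM at E13.5. It rose by 0.99 in controls (SE 0.12), to 119 CPM at E18.5 against 60.9 CPM at E13.5. In both genotypes every E18.5 library lay above every E13.5 library for Mkl2 and below every E13.5 library for Srf. Mkl1 rose by 0.58 in mutants (SE 0.11; adjusted p = 3.02e-05) and by 0.35 in controls (SE 0.12; adjusted p = 0.0095), where the call was lost without E18.5 control 2 (0.27; adjusted p = 0.0528).

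Tgfb1i1 rose by 1.55 in mutants, the most of the members, and by 0.93 in controls, next to Mkl2 (SE 0.09 each). It averaged 192 ± 17.2 CPM in E18.5 mutants (SD, n = 6) and 66.1 ± 7.29 CPM in E13.5 mutants (SD, n = 5). In controls it averaged 174 ± 23.8 CPM at E18.5 (SD, n = 4) and 92.2 ± 6.35 CPM at E13.5 (SD, n = 5). Fhl2 fell by 0.69 in mutants and by 1.09 in controls (SE 0.14 and 0.16), to 5.96 against 9.71 CPM in mutants and to 5.53 against 11.9 CPM in controls. Elk4 rose by 0.32 in mutants and by 0.38 in controls (SE 0.11 and 0.12). Elk3 rose by 0.31 in mutants (SE 0.05). In controls its change was 0.10 (SE 0.05; adjusted p = 0.0996), and it passed there with DESeq2 (0.13; adjusted p = 0.01), with DESeq2 size factors in edgeR (0.12; adjusted p = 0.0392) and without E18.5 control 1, E18.5 control 4 or E18.5 mutant 3 (0.13 to 0.15). Elk1 was at -0.06 in both genotypes and did not pass, except in mutants without E13.5 mutant 1 (-0.14; adjusted p = 0.0484).

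**Figure D5:**
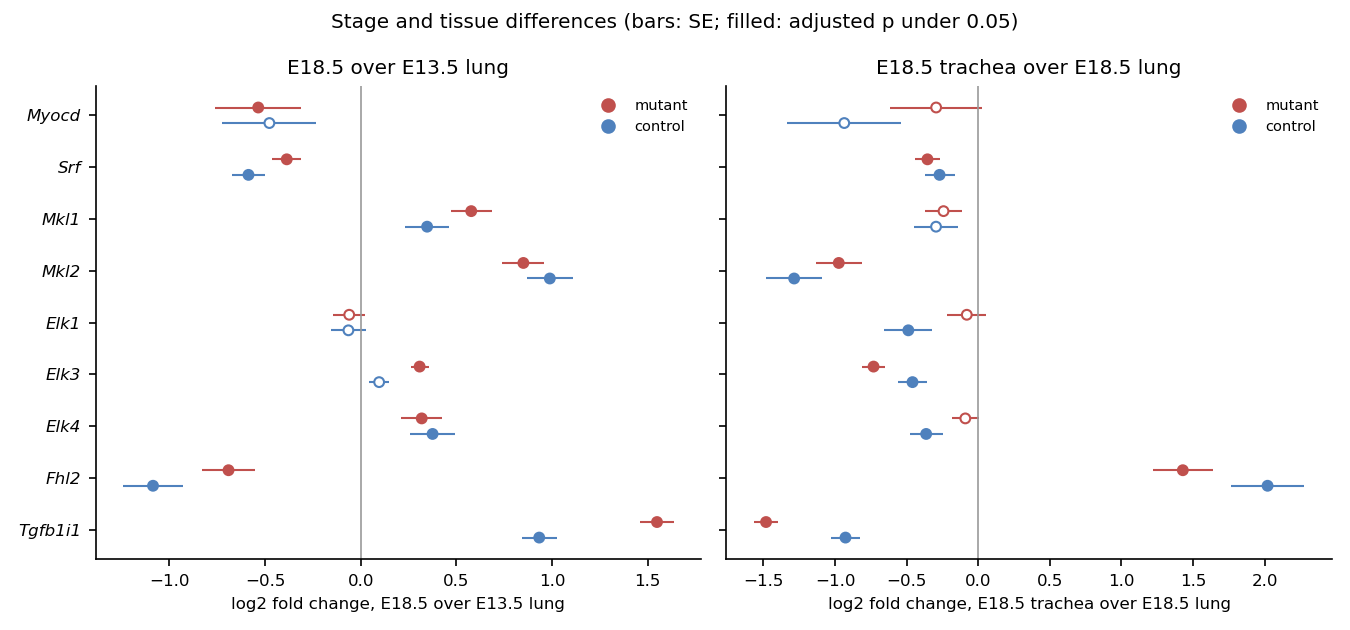
Log2 fold change of each member between stages (left, E18.5 over E13.5 lung) and tissues (right, E18.5 trachea over lung), in mutants (red, upper point) and controls (blue, lower point); bars are SE and filled points passed an adjusted p of 0.05. Tgfb1i1 lies at 1.55 and 0.93 for stage and at -1.48 and -0.93 for tissue, and Fhl2 is the only member to the right of 0 for tissue.

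Between organs at E18.5, 58.2% of 19859 genes differed in trachea against lung of mutants (31.7% higher and 26.5% lower) and 49.1% in trachea against lung of controls (24.5% higher and 24.6% lower). Of the members 5 of 9 passed in mutants (1 higher, 4 lower) and 7 of 9 in controls (1 higher, 6 lower). Fhl2 was the member higher in trachea, by 1.43 in mutants and 2.02 in controls on the log2 scale (SE 0.21 and 0.26), with 15.2 CPM in trachea against 5.96 CPM in lung of mutants, and 22.3 CPM in trachea against 5.53 CPM in lung of controls. Every trachea lay above every lung of its genotype.

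The other calls were lower in trachea. Tgfb1i1 fell by 1.48 in mutants and 0.93 in controls (SE 0.08 and 0.10), to 65.4 against 192 CPM in mutants and to 90.9 against 174 CPM in controls. Mkl2 fell by 0.97 in mutants and by 1.29 in controls (SE 0.16 and 0.20), and Elk3 fell by 0.73 in mutants and by 0.46 in controls (SE 0.08 and 0.10). Srf fell by 0.35 in mutants (SE 0.09; adjusted p = 0.000962) and by 0.27 in controls (SE 0.10; adjusted p = 0.0349). The control call for Srf was lost with DESeq2 size factors in edgeR (-0.23; adjusted p = 0.0692), with DESeq2 (adjusted p = 0.068), without the filter on low counts (-0.20; adjusted p = 0.195) and without lung control 2 or 4 or trachea control 1 or 3 (-0.25 to -0.23). Elk1 and Elk4 fell in controls by 0.49 and 0.36 (SE 0.17 and 0.12). In mutants they were at -0.08 (SE 0.14) and -0.09 (SE 0.09), and the differences between genotypes, 0.41 ± 0.21 and 0.27 ± 0.15 (SE), did not pass. The Elk1 call in controls was lost without trachea control 2 (-0.37; adjusted p = 0.0647), and both control calls without the filter (adjusted p = 0.0598 and 0.0603). Elk4 passed in mutants without trachea mutant 4 (-0.19; adjusted p = 0.0482).

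Myocd in mutants and Mkl1 in both genotypes did not pass between organs, and the Myocd call in controls depended on the model. Myocd had 5.62 ± 1.997 CPM in trachea and 7.23 ± 1.88 CPM in lung of mutants (SD, n = 6 each; log2 fold change -0.29 ± 0.32 SE). It had 4.77 ± 2.95 CPM in trachea and 9.26 ± 2.52 CPM in lung of controls (SD, n = 4 each; -0.94 ± 0.40 SE; adjusted p = 0.0541). With the replicate number as a block, which pairs the trachea and lung of the same number, Myocd passed in controls (-1.17 ± 0.36 SE; adjusted p = 0.0139), and 8 of 9 members were called there. The share of all genes called with the block is not given, so that count cannot be set against a background. Without the block that value passed without lung control 2, trachea control 3 or trachea mutant 2 or 6 (-1.29 to -0.93; adjusted p 0.0147 to 0.0474) and with DESeq2 (-0.91; adjusted p = 0.0486). Mkl1 was at -0.24 ± 0.13 in mutants and -0.29 ± 0.16 in controls (SE). Without trachea control 2 it passed in both, at -0.24 (adjusted p = 0.0449) and -0.51 (adjusted p = 0.00393), and in mutants also without trachea mutant 4 (-0.34; adjusted p = 0.0191).

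Ordered by group mean, Myocd ran from E13.5 lung over E18.5 lung to trachea, and every neighbouring pair of groups overlapped. For Srf the only gap in that order lay between E18.5 lung mutants, highest library 96.5 CPM, and E13.5 lung mutants, lowest library 105 CPM. For Tgfb1i1 there were 2 gaps, below E18.5 lung controls (lowest 149.98 CPM) and above E13.5 lung mutants (highest 73.8 CPM).

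The genes most like Myocd and Srf were named by Pearson's r over 30 libraries of log2(CPM + 1), with the mean of each library's group taken off, among 12100 genes of at least 5 CPM. For Myocd they included Nfrkb, Ppp1r16b, Rab3gap2 and Ano6, with r of 0.889 to 0.900. Without trachea control 2 these 4 values were 0.830 to 0.862. For Srf they were Ehmt2, Zyx, Rhbdf1, Sh3bp2 and Kcnh2, with r of 0.693 to 0.730. These points share libraries, depth and length slope, and r is given as a description with no test. Zyx, zyxin of focal adhesions, was the only gene of the SRF target lists among these 9.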

How the data were processed

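RNA was extracted from single organs with TRIzol and RNeasy Micro columns and sequenced on a HiSeq4000, per the labels' protocols. Reads were aligned with STAR to GRCm38, and the authors' comparisons used DESeq2, per the submitters' processing notes. The deposited values are raw counts per gene from featureCounts 1.6.2 with GENCODE vM17, per the file headers, which also give each gene's exon length in bases; no strand, overlap or multi-mapping option appears there.

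Counts were tested with edgeR 4.0.16 (R 4.3.3, limma 3.58.1; filterByExpr, TMM scaling, robust quasi-likelihood test, two-sided, Benjamini-Hochberg adjustment over all genes tested, threshold 0.05), which was also tested on simulated data. Each mutant comparison used its own 10 libraries, and stage and tissue contrasts and the differences of effects used 20. SE is the log2 fold change over the root of the F statistic. Levels use TMM sizes over all 30 libraries. Of 53715 genes, 53620 had a symbol. P-values measure the spread between single organs; no replicate pair differed by less than sampling noise.

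The members and lists were chosen with earlier results of these data known. From each list (contractile targets, cytoskeletal targets, immediate early targets, other partners), up to 4 called genes per mutant comparison were named by adjusted p, or the 2 most abundant where fewer than 2 passed. Marker lists covered airway smooth muscle, vascular smooth muscle, cardiac and skeletal muscle, endothelium, leukocytes, cartilage, lung epithelium, thyroid and erythroid cells. Alternatives were DESeq2 1.42.0, its size factors in edgeR, no filter, a replicate block and leaving out each library. After seeing the data, the length slope (over genes of at least 5 CPM) and the cardiac marker sum were added as model terms, and E13.5 mutant 1 with control 1, and the shallow tracheas, were left out. The replicate numbers were taken to pair trachea with lung in E18.5 controls, from the data. There the deviations of all 4 same-numbered pairs correlated at over 0.1 (0.112 to 0.202). No other comparison met that rule. The E18.5 mutant pairs missed it (0.0627 to 0.224), yet all 6 correlated best with their own number, as did all 4 in controls. The labels name no shared animal, but they number lungs and tracheas of both genotypes in the same order. The main tests between organs, and the difference of effects between them, took trachea and lung as independent. DESeq2 adjusted p-values given as NA stayed NA. Promoter sequences are RefSeq's for GRCm38.p6. 1 gene alike to Myocd is not reported here.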

Additional observations from a re-analysis of the deposited data

Results flagged for a closer look

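In 5 of the 54 sets of member levels (9 genes in 6 groups), 1 library lay far from the rest of its group, where chance gives about 1 such set in 20. Trachea mutant 4, a shallow library with a low length slope, gave 3 of them. It held 76.94 CPM of Mkl1, against 60.3 CPM in the next trachea mutant. It held 57.45 CPM of Elk3, with 82.18 CPM in the next lowest, and 81.6 CPM of Elk4, with 64.5 CPM in the next highest. E13.5 mutant 1, the library with the lowest length slope, held 81.87 CPM of Elk4, with 53.55 CPM in the next highest E13.5 mutant. E13.5 mutant 3 held 129.6 CPM of Srf, with 111.4 CPM in the next highest. The part of depth or transcript coverage in these values was not tested.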

How the results depend on the processing

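The count of members past the threshold in E13.5 lung (1, Tgfb1i1) was 0 with a replicate block, 0 without control 1 and mutant 1 together, and 0 to 1 over fits that left out 1 library. In trachea it was 1 with DESeq2 instead of 0. For the differences of effect it was 1 instead of 0 with DESeq2, for stage and for tissue, and 0 to 1 for stage over fits without 1 library. For trachea against lung controls it was 4 without the filter on low counts, instead of 7, and the share of all genes is not given for that fit. The cause was not tested in any of these. With the replicate block Tgfb1i1 in E13.5 lung stood at -0.48 (adjusted p = 0.096) and 0 contractile genes were called there instead of 6. Of all genes, 0 were called with that block, against 34 in the main fit, so the loss was not particular to these genes. Same-numbered E13.5 libraries share only a number (correlations of -0.239 to -0.037). In trachea against lung controls, where the numbers were taken to pair the samples, the block changed the Myocd call and no other member's. For mutants, whose pairs correlated at 0.0627 to 0.224 and each best with its own number, it changed no member's call. For mutant against control in E13.5 lung, the sign turned for Elk1 (0.00149) and Elk4 (-0.1473) without control 1 and mutant 1, for Flna (0.09246) and Notch3 (0.08242) likewise, and for Elk4 (-0.02029) with the length slope. In E18.5 lung it turned for Mkl2 (0.01335 with the block, 0.04624 with the slope), Elk4 (0.0269 with the slope) and Mcl1 (7.829e-05 with DESeq2, 0.006917 with the slope). In trachea it turned for Myocd (-0.04402), Srf (0.02137) and Mkl2 (-0.06295) without the shallow libraries, Mkl1 (-0.09873 with the slope), Mcl1 (0.009152 with the block) and Rhoa (-0.008615 without the filter). Of the differences of effect, Elk1 between stages turned to -0.003552 without the filter and -0.006095 with the block, and Mkl1 between tissues to -0.005301 without the filter. None of these signs belonged to a called value. Over fits without 1 library, the values that changed sign ranged as follows. In E13.5 lung, Mkl2 ran from -0.03144 to 0.0704, Elk1 from -0.1403 to 9.596e-05, Elk4 from -0.1283 to 0.07913, Flna from -0.1272 to 0.02245 and Notch3 from -0.1905 to 0.084. In E18.5 lung, Elk4 ran from -0.07161 to 0.02238 and Mcl1 from -0.02155 to 0.01851. In trachea, Myocd ran from -0.07636 to 0.619, Srf from -0.07468 to 0.03263, Mkl1 from -0.007893 to 0.3095, Mkl2 from -0.04196 to 0.3399, Mcl1 from -0.04236 to 0.02199 and Rhoa from -0.06598 to 0.05949. Between stages, the difference of effect ran from -0.2263 to 0.07898 for Myocd, -0.0771 to 0.05539 for Elk1 and -0.1081 to 0.1107 for Elk4. Between tissues it ran from -0.05159 to 0.2623 for Mkl1. Myocd, a low gene, rested on 11 reads in trachea control 2 (11738468 counts) and on 49 reads in trachea mutant 4 (12384284 counts). The part of depth in these values was not tested.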
